A study of Mus musculus with 4 samples.

Results

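The Fc receptors and the signalling chains they share with other immune receptors were followed in mouse macrophages with and without the nuclear receptor gene Pparg. The set held 7 genes: the IgG receptors Fcgr1, Fcgr2b, Fcgr3 and Fcgr4, the adaptor chains Fcer1g and Tyrobp, and the neonatal Fc receptor Fcgrt. Members were all probe sets with values that the platform annotation assigned to these genes, which gave 8 of 10649 probe sets and 6 of the 7 genes. Fcgr1 and Fcer1g had 2 probe sets each, and the annotation listed 0 probe sets for Fcgr4, so Fcgr4 was not analysed here. A filter on low signal, set at the 40th percentile of mean signal (111.4 intensity units), kept 7 member probe sets of 5 genes among 6389 kept in all. Fcgr3 fell below it.

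Peritoneal macrophages came from mice labelled PPARg WT or PPARg KO, both on a mixed 129/SV and C57BL/6 background, with 2 Affymetrix arrays per genotype. Both groups were injected with thioglycollate (2.5 ml at 3%), a sterile irritant that fills the peritoneum with newly arrived monocytes turning into macrophages, and were lavaged on day 3. The adherent cells of both groups were then held for 24 h in 0.5% serum, with no ligand or stimulus named. The labels give neither ages, nor the part of Pparg that was deleted, nor the cells in which it was deleted, nor whether the arrays of 1 genotype stand for separate animals. The p-values therefore reflect array-to-array spread, taken from probe sets of like signal, which may be technical.

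Fc receptors let macrophages see antibody. Activating receptors bind the constant part of IgG and pass the signal through the Fcer1g chain, whose ITAM (a tyrosine-based activation motif) is phosphorylated by Src-family kinases and then recruits the kinase Syk. Fcgr2b binds IgG complexes too but carries an inhibitory motif, an ITIM, which recruits the lipid phosphatase encoded by Inpp5d and restrains the activating receptors. Tyrobp (DAP12) is a second ITAM chain that pairs with receptors of the TREM and lectin families, and Fcgrt, which pairs with B2m, protects IgG from lysosomal breakdown.

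The measured macrophage markers, apart from Mrc1 in WT, were detected in both genotypes. All 13 passed the filter, which takes the mean signal over the arrays of both genotypes. Their summed signal was 37230 and 38130 in WT and 35250 and 40650 in KO. Of the 13, 1 rose, 1 fell and 11 did not pass, where 3.78% of all genes were called. Mrc1, the mannose receptor, rose, with signals of 93 and 94.8 in WT and 174.1 and 205.4 in KO. Its WT signals lay below the antisense control level, so it was not detected in WT and no fold is given. It passed the filter through its KO signals. Mertk, a receptor for dying cells, fell (log2 fold change -0.63). After quantile normalization 4 of the 13 were called, where 6.64% of all genes were. The Pparg probe set read 61.1 and 73.1 in WT and 43.0 and 40.6 in KO, all below the median antisense control of the array, with both KO signals under both WT signals. Whether it covers the deleted part is not given in the labels. The antisense control medians, each over 12 control rows of an array, ran from 103.8 to 116 units. They served here as the level below which a signal is not clearly above background.

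None of the Fc receptor or adaptor transcripts passed the test between genotypes. Below, a log2 fold change is the KO mean less the WT mean of log2(signal + 16), and each adjusted p comes from limma, by the Benjamini-Hochberg method over all kept probe sets. At an adjusted p of 0.05, 0 of the 7 tested member probe sets passed, where 3.63% of all probe sets did (1.05% higher and 2.58% lower in KO), and 0 had an unadjusted p under 0.05, where 9.53% did. Without variance moderation limma called 0 of all 6389, with 391 at an unadjusted p under 0.05, so its 0 calls among the members carry no information. Across the 7 the difference lay between 0.04 and 0.19 in size on the log2 scale, 2 with a higher and 5 with a lower mean in KO. A fold of 1.27 to 1.38, depending on signal, would have been needed for one of the 7 to pass.

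**Figure D1:**
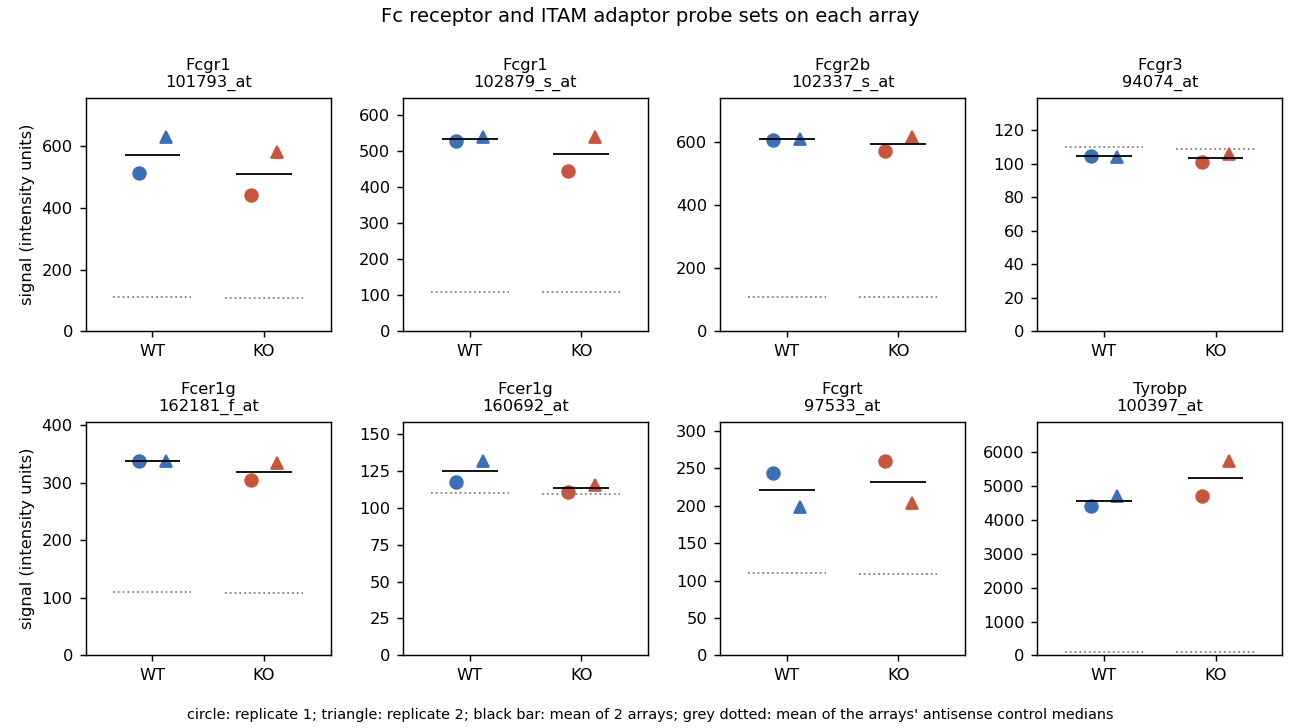
Signal in intensity units (linear axis from 0) of the 8 member probe sets on each of the 4 arrays, with replicate 1 as circles, replicate 2 as triangles, the genotype mean as a black bar and the antisense control level as a grey dotted line. Fcgr3 sits at the control level, and Fcgrt and the first Fcgr1 probe set split by replicate number rather than by genotype.

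Fcgr1 encodes the high-affinity receptor for IgG, CD64, and is the one activating IgG receptor measured here above background. Its probe set 101793_at read 511.3 and 628.6 in WT and 440.2 and 579.3 in KO. The genotypes overlapped, and in both of them replicate 2 was the higher array. The means were 570 ± 82.9 in WT and 510 ± 98.4 in KO (SD, n = 2), and the log2 fold change was -0.16 (SE 0.14, adjusted p = 0.99). The 95% interval ran from -0.44 to 0.12, or 0.735-fold to 1.09-fold.

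The other Fcgr1 probe set, 102879_s_at, read 527.4 and 538.9 in WT and 444.1 and 539.4 in KO. Here 3 arrays were close together and KO replicate 1 was the low one. The log2 fold change was -0.12 (interval -0.40 to 0.16, adjusted p = 0.9997). Without KO replicate 1 the values of the pair turned to 0.03 and 0.02, and that of 101793_at was -0.02 without WT replicate 2. KO replicate 1 was also the lower KO array for probe sets of like signal. The 200 kept probe sets nearest to 102879_s_at had a median log2 difference of 0.19 between KO replicate 2 and KO replicate 1. The probe set itself differed by 0.27. At 101793_at these values were 0.19 and 0.38. Within replicate numbers 101793_at was lower in KO in both, by log2 differences of -0.21 and -0.11. The suffix s marks probe sets whose probes can match more than one transcript.

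The bases before the gene starts were searched on both strands for GAGGAA, a core bound by PU.1, the transcription factor that drives many myeloid genes. The 250 bases upstream of the start of Fcgr1 (RefSeq, GRCm38.p6, chr3:96293970-96294219, minus strand) held 1 match, and those of its inhibitory counterpart Fcgr2b (chr1:170976072-170976321, minus strand) held 0. Both are shown, as the activating and the inhibitory receptor measured above background, 5′ to 3′ with the match, read on the opposite strand, in capitals.
Fcgr1: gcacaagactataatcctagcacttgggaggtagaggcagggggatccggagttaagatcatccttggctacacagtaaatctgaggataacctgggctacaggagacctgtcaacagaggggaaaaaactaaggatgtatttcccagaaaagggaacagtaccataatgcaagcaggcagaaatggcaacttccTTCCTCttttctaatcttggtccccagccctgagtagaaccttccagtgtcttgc
Fcgr2b: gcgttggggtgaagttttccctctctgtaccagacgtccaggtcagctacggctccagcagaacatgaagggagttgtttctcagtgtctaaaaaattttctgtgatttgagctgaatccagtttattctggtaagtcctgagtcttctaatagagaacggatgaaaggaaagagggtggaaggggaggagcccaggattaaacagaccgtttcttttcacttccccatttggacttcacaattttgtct

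The match began 55 bases before the start of Fcgr1. Of 32851 promoter windows of that length, 23.3% held GAGGAA. Windows were given for 6 of the 7 genes, with Tyrobp as the one unmatched. GAGGAA was found in 3 of them (Fcgr1, Fcgr3 and Fcgr4), and an interferon-response motif of 2 GAAA blocks 2 bases apart, which 2.98% of windows held, in Fcgr4 alone. A match describes the letters of the window and is not evidence of binding.

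As a measure of scale, 2 interferon-induced genes were set beside Fcgr1, chosen after their falls were seen, so that their contrast with it is a description and not a test. Gbp2, a guanylate-binding protein, read 4397.5 and 4061.5 in WT and 1827.3 and 1998 in KO. Iigp1, an immunity-related GTPase, read 2321.7 and 2227.5 in WT and 373.6 and 401.4 in KO. Their log2 fold changes were -1.14 and -2.51.

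**Figure D2:**
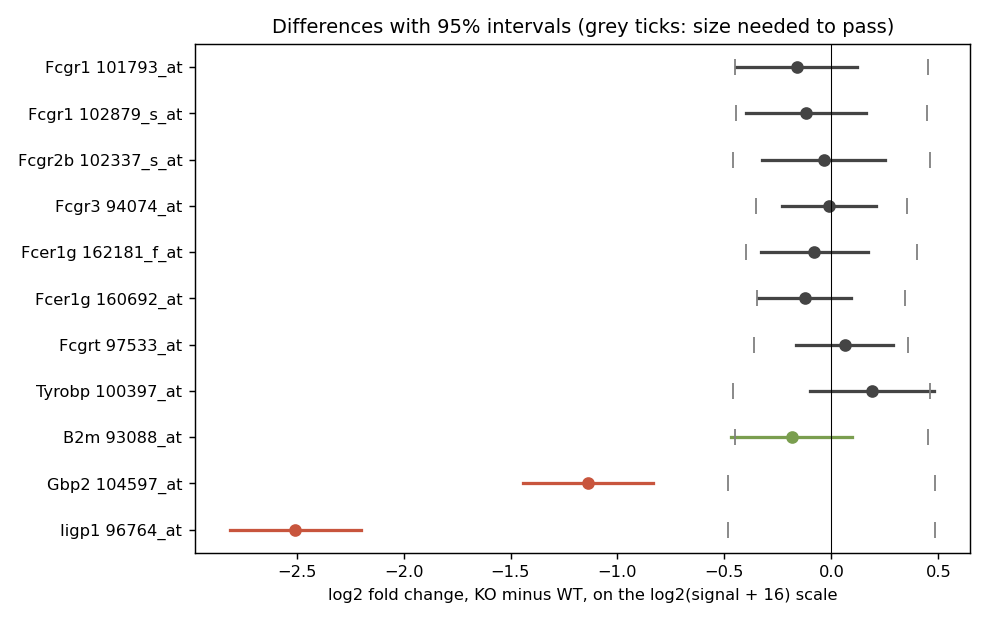
Log2 fold change (KO minus WT) with its 95% interval for the 8 member probe sets (dark), the Fcgrt partner B2m (green) and the interferon-induced genes Gbp2 and Iigp1 (red), with grey ticks at the size that would have passed the threshold. The interval of Fcgr3 is that of a signal at background. Every member interval crosses 0 and lies above the intervals of Gbp2 and Iigp1.

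Fcgr3 (CD16) is a low-affinity activating receptor and, with Fcgr2b and Fcgr4, one of 3 neighbouring genes on mouse chromosome 1. Its probe set 94074_at read 104.6 and 104.1 in WT and 101.3 and 105.7 in KO. The antisense control median exceeded 3 of the 4 signals, so these values set no level for the gene and no fold is given. In a fit without the signal filter it did not pass, where 3.11% of 10649 probe sets were called.

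Fcgr2b, the inhibitory IgG receptor, gave 607.7 and 610.7 in WT and 572.3 and 616.4 in KO with probe set 102337_s_at. The WT arrays were nearly equal and lay within the KO range. Its ID has the same suffix, the Fcgr2b and Fcgr3 transcripts are closely alike, and a part of Fcgr3 in this signal was not tested. The means were 609 ± 2.12 and 594 ± 31.2 (SD, n = 2), and the log2 fold change was -0.04 (SE 0.15, interval -0.32 to 0.25, adjusted p = 0.9997). This interval corresponds to 0.799-fold to 1.19-fold. KO replicate 2 exceeded KO replicate 1 by 0.10 on the log2 scale. The median over the 200 kept probe sets nearest in signal was 0.18.

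The balance of activating to inhibitory receptor was read as the log2 ratio of Fcgr1 to Fcgr2b on each array. Since probes differ in how well they bind, only its change between genotypes can be read. With 101793_at it was -0.24 and 0.04 in WT and -0.37 and -0.09 in KO, a difference of -0.13 between overlapping genotypes (exact two-sided permutation test, p = 0.667, where 0.333 is the smallest possible). With 102879_s_at it was -0.20 and -0.18 in WT and -0.35 and -0.19 in KO, a difference of -0.08 (exact permutation p = 0.667), and here too 3 of the arrays were close and KO replicate 1 was low. The first difference turned to 0.02 without WT replicate 2 and to 0.01 without KO replicate 1.

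Fcer1g encodes the FcR gamma chain, which the activating IgG receptors need for signalling and for surface expression. Probe set 162181_f_at read 338.1 and 337.1 in WT and 304.2 and 333.9 in KO. Both KO arrays were below both WT arrays, KO replicate 2 by a small margin. The log2 fold change was -0.08 (SE 0.13, interval -0.33 to 0.17, adjusted p = 0.9997). The dimmer probe set 160692_at read 117.6 and 131.7 in WT and 110.6 and 115.3 in KO, again without overlap, with 1 of the 4 signals below its antisense control median and a log2 fold change of -0.12 (interval -0.34 to 0.09, adjusted p = 0.998). The suffix f of the first marks probes shared within a sequence family. The mean of both probe sets gave -0.10 (adjusted p = 0.991).

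Tyrobp read 4407.6 and 4698.2 in WT and 4708.3 and 5735.7 in KO, which put it among the brightest probe sets on these arrays (the 99.5th percentile). Both KO arrays lay above both WT arrays, but KO replicate 1 exceeded WT replicate 2 only slightly. The means were 4553 ± 205.5 and 5222 ± 726.5 (SD, n = 2), and the log2 fold change was 0.19 (SE 0.15, interval -0.10 to 0.48, adjusted p = 0.93). After quantile normalization of the arrays the difference was 0.17 and passed (adjusted p = 0.0408), the 1 member called when 6.67% of all probe sets and 6.64% of genes were. The difference was 0.05 without KO replicate 2 (adjusted p = 0.90) and 0.33 without KO replicate 1 (adjusted p = 0.0501).

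Bright probe sets as a class read higher on KO replicate 2 than on KO replicate 1. The 200 kept probe sets nearest to Tyrobp in signal had a median log2 difference of 0.21 between it and KO replicate 1, and of 0.06 between WT replicate 2 and WT replicate 1. Tyrobp itself differed by 0.28 and 0.09 between the same arrays. The median of those 200 probe sets between genotypes was 0.03, against 0.19 for Tyrobp. The part of this shift in the Tyrobp difference was not tested.

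Counting arrays in place of fitting them, the genotypes did not overlap at 3 of the 7 tested member probe sets, 2 of Fcer1g lower in KO and 1 of Tyrobp higher. All kept probe sets gave 32.5%, so non-overlap alone is not a result about the members.

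Fcgrt, the FcRn heavy chain, read 243.7 and 198 in WT and 260 and 203.5 in KO. The genotypes overlapped, and replicate 1 was the higher array in each. The means were 221 ± 32.3 and 232 ± 39.95 (SD, n = 2), and the log2 fold change was 0.06 (SE 0.12, interval -0.16 to 0.29, adjusted p = 0.9997). It turned to -0.08 without WT replicate 2 and to -0.10 without KO replicate 1.

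B2m, the light chain that FcRn shares with MHC class I, read 6093.3 and 6130.6 in WT and 5222.3 and 5527.5 in KO. Both KO arrays were lower, and the log2 fold change of -0.19 (SE 0.14, adjusted p = 0.93) did not pass. It passed after quantile normalization, at -0.20 (adjusted p = 0.0134).

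Differences between replicate numbers exceeded those between genotypes at 5 of the 8 member probe sets, where 57.5% of all kept probe sets showed the same. Fcgr3, at background and not kept by the filter, counts among the 5. At 6 of the 8 the difference between replicates had the same sign in WT and KO, against 64.2% of all kept probe sets. Neither count is far from its share, so neither is a result about the members. The probe set 101793_at of Fcgr1 was higher in replicate 2 by 0.29 in WT and by 0.38 in KO on the log2 scale. Only 0.125% of the 6389 kept probe sets had a larger mean rise from replicate 1 to replicate 2.

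Fcgrt was at the opposite end. It fell by 0.28 in WT and by 0.33 in KO from replicate 1 to replicate 2, and 0.344% of kept probe sets had a lower value. The other Fcgr1 probe set was higher in replicate 2 by 0.03 in WT and 0.27 in KO, a mean that 22.3% of kept probe sets exceeded. The labels do not say what a replicate number stands for.

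**Figure D3:**
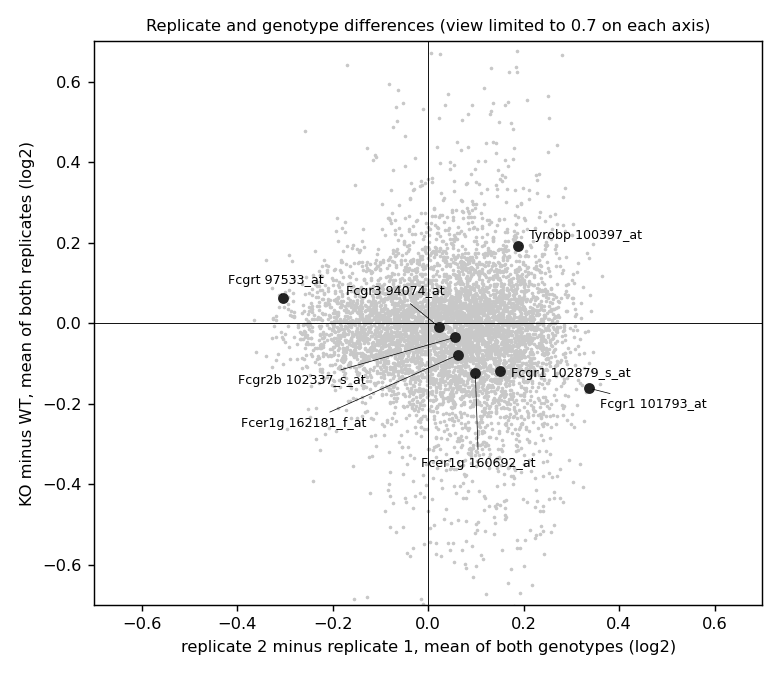
For each kept probe set (grey) and the 8 member probe sets (black), the log2 difference of replicate 2 from replicate 1, averaged over genotypes, against the log2 difference of KO from WT. Fcgr1 101793_at and Fcgrt lie at opposite edges of the replicate axis, at 0.34 and -0.30, and all members lie within 0.19 of 0 on the genotype axis.

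A probe set's own variation between replicates did not set the width of its interval. Intervals above take each probe set's spread from probe sets of like signal. From its own 2 residual degrees of freedom, the interval of Fcgr1 101793_at would run from -1.20 to 0.87 and that of Fcgrt from -0.87 to 0.99, while that of Fcgr2b would run from -0.26 to 0.19.

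The signalling genes downstream of activating Fc receptors had 1 called member. Of 25 kinases, adaptors and lipases tested out of 40 listed, 1 fell, 0 rose and 24 did not pass, with a median log2 fold change of -0.06 against -0.02 over all 5001 genes tested, of which 3.78% were called. After quantile normalization 5 of the 25 were called, where 6.64% of all genes were, and 0 to 2 when single arrays were left out. Lcp2, which encodes SLP-76, the scaffold that links Syk to phospholipase C gamma and Vav, was the one that fell. It read 340.2 and 299.7 in WT and 200.1 and 229.2 in KO, with no overlap (log2 fold change -0.54, SE 0.12, adjusted p = 0.000374). Lcp2 missed the threshold without WT replicate 1 (-0.46, adjusted p = 0.466) and without WT replicate 2 (-0.63, adjusted p = 0.0713).

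Vav1, the exchange factor for Rac that acts beside SLP-76, read 889 and 1040.5 in WT and 635.6 and 833.9 in KO, for a log2 fold change of -0.39 (adjusted p = 0.189). It passed after quantile normalization (-0.35, adjusted p = 0.0121), without the intensity trend (adjusted p = 0.0197), with the replicate block (adjusted p = 0.00298) and without KO replicate 2 (-0.59, adjusted p = 0.00136). It did not pass without KO replicate 1 (-0.20, adjusted p = 0.617), without WT replicate 1 (-0.51, adjusted p = 0.9997), without WT replicate 2 (-0.28, adjusted p = 0.9999) or after median centring (-0.37, adjusted p = 0.413). Sos1, an exchange factor for Ras, had means of 200 and 169, and the Src-family kinase gene Fyn 132 and 111 (adjusted p = 0.495 and 0.523). Syk itself read 1277.8 and 1234.9 in WT and 1130.2 and 1307.3 in KO, for a log2 fold change of -0.05. Its dimmer probe set gave -0.30 (adjusted p = 0.163).

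Among enzymes and adaptors that restrain ITAM signals, 2 of 10 tested fell and 8 did not pass, with a median of -0.01, where 2.72% of all genes were called lower. Ptpn6 encodes the tyrosine phosphatase SHP-1, which ITIM receptors recruit. It read 892.4 and 828.1 in WT and 551.8 and 665.7 in KO, without overlap (log2 fold change -0.49, SE 0.15, adjusted p = 0.0326). The call was lost without WT replicate 1 (-0.44, adjusted p = 0.9997), WT replicate 2 (-0.55, 0.9999) or KO replicate 1 (-0.36, 0.167) and after median centring (-0.47, 0.108), at differences of the same sign. Pag1, an adaptor that holds the inhibitory kinase Csk at the membrane, read 189.5 and 155.3 in WT and 116.2 and 127.1 in KO, for a log2 fold change of -0.45 (adjusted p = 0.00226), which without WT replicate 1 was -0.32 (adjusted p = 0.912). Its other probe set lay below background on all 4 arrays.

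Inpp5d, the lipid phosphatase SHIP1 that Fcgr2b recruits, did not pass, at means of 477 in WT and 506 in KO for a log2 difference of 0.08. Its dimmer probe set went the other way, at -0.09 (adjusted p = 0.9997). Ptprc, the phosphatase CD45, had means of 412 and 365.5 (adjusted p = 0.924), and Ptpn22, a phosphatase that acts with Csk, 113 and 125 (adjusted p = 0.983).

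Of the receptors that pair with Fcer1g or Tyrobp, 5 of 30 listed had values and 2 were tested. Of these 2, 1 was called lower, where 2.72% of all genes were. Clec4e (Mincle), a lectin receptor for mycobacterial and damaged-cell lipids that signals through the FcR gamma chain, fell from 393 ± 48.3 to 219 ± 23.4 (SD, n = 2). The arrays read 426.8 and 358.5 in WT and 202.8 and 235.9 in KO, all KO values below all WT values. The log2 fold change was -0.79 (SE 0.12, adjusted p = 2.47e-08), and it stayed past the threshold when any single array was left out (adjusted p from 2.79e-10 to 0.033). Clec4d, a related lectin receptor of the same chain, had means of 1259 and 1300 and a log2 fold change of 0.04 (adjusted p = 0.9997). The adaptor chain Fcer1g did not pass beside them, as given above.

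In the list of inhibitory receptors with ITIMs, 1 of 5 tested members was higher in KO, where 1.06% of all genes were called higher. Its median of 0.14 was the value of Lilr4b. Ceacam1, an adhesion molecule with ITIMs in its long form, rose from 135.5 and 148.5 to 177.4 and 202.2 (log2 fold change 0.38, SE 0.11, adjusted p = 0.0191). The call was lost without WT replicate 1 (0.32, adjusted p = 0.998), WT replicate 2 (0.44, 0.298) or KO replicate 2 (0.29, 0.184), and its other probe set gave 0.27 (adjusted p = 0.253). Of the 4 signals of that other Ceacam1 probe set, 1 lay below the antisense control median of its array. Pirb, which binds MHC class I and recruits SHP-1, read 711.8 and 773.4 in WT and 831.6 and 1008.2 in KO, for a log2 fold change of 0.30 (adjusted p = 0.543). It passed after quantile normalization (0.34, adjusted p = 0.00827) and with the replicate block (adjusted p = 0.0492), and without KO replicate 2 it was 0.16 (adjusted p = 0.695). Lilr4b (gp49A), which was listed here but has no ITIM of its own, had means of 1982 and 2195. Sirpa, the receptor for CD47, had means of 1722 and 1612. Neither passed.

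Other antibody-binding proteins had 2 tested members, of which 1 was called lower, where 2.72% of all genes were. Trim21, a cytosolic Fc receptor and ubiquitin ligase known to be induced by interferons, read 434.8 and 379.8 in WT and 287.1 and 306.3 in KO and fell (log2 fold change -0.43, SE 0.13, adjusted p = 0.0265). Its dimmer probe set gave -0.40 (adjusted p = 0.0256). Trim21 missed the threshold without WT replicate 1 (-0.34, adjusted p = 0.9997), WT replicate 2 (-0.53, 0.588) or KO replicate 1 (-0.39, 0.0646) and after median centring (-0.41, 0.0856), at differences of the same sign. Pigr, the transporter of polymeric antibody, had means of 208 and 200 (adjusted p = 0.9997). The lymphocyte ITAM chains Cd3e, Cd79a and Cd79b were dim, with means between 139 and 202, and 0 of 3 passed. Without variance moderation the 6 called genes of these lists also missed the threshold (adjusted p from 0.776 to 0.851), so each call rests on spread taken from other probe sets.

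**Figure D4:**
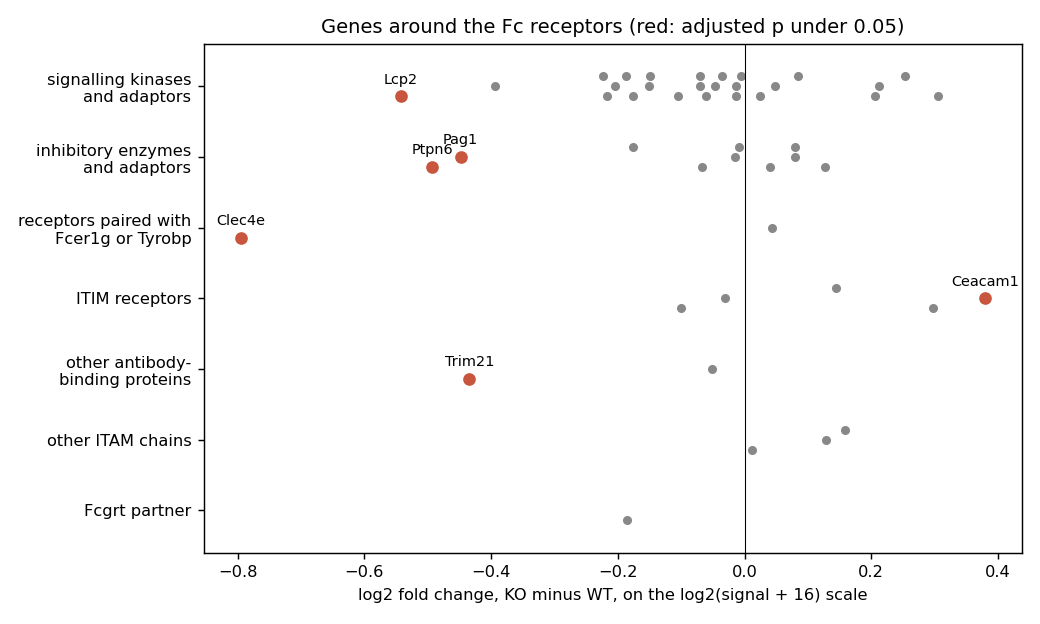
Log2 fold change (KO minus WT) of each tested gene in 7 lists around the Fc receptors, one point per gene, with red and a name where adjusted p was under 0.05. Lcp2, Ptpn6, Pag1, Clec4e and Trim21 lie to the left of 0 and Ceacam1 to the right, and 42 other points did not pass.

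Several other cells of a lavage carry the same receptors, B cells Fcgr2b, NK cells Fcgr3 with both adaptor chains, and mast cells and neutrophils Fcer1g. Of 10 measured B cell markers 7 were tested and 0 called, with summed signals of 1745 and 1786 in WT and 1731 and 1769 in KO, and 3 lay below the antisense control median on all 4 arrays. Of 5 NK markers 4 lay below it (sums 447 and 486 in WT, 426 and 423 in KO), of 10 T cell markers 6 (1036 and 1032, 1047 and 947), and of 8 mast cell and basophil markers 6 (786 and 793, 835 and 770). The genes tested numbered 7 for B cells, 1 for NK cells, 3 for T cells and 2 for mast cells and basophils. None of them was called, where 3.78% of all genes were. With so few tested, this does not show that these cells were alike in the 2 genotypes.

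Of 13 neutrophil markers 7 were tested. Mmp8 rose (log2 fold change 0.58), S100a8 fell (-0.58) and 5 did not pass, where 3.78% of all genes were called. The sums over the list were 2186 and 2250 in WT and 2185 and 2137 in KO. The S100a8 call was lost without WT replicate 1 (-0.61, adjusted p = 0.405) or WT replicate 2 (-0.54, 0.732), and that of Mmp8 without WT replicate 2 (0.47, 0.454). Dendritic cell markers had 0 of 5 called (2094 and 2045, 1899 and 1987) and eosinophil markers 0 of 1 (239.4 and 226, 229 and 215). The part of such cells in the member values was not tested, and in bulk RNA fewer cells of a type and less RNA per cell cannot be told apart.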

How the data were processed

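Per the values, the deposited table holds 1 linear intensity per probe set and array on a 1-colour Affymetrix platform; no source used here gives the summary method, background correction or scaling behind it. Of 12488 rows, 1780 were blank and 59 were controls, which left 10649 probe sets. The annotation gave 1 gene for 9389, several for 341 and none for 919, and 9377 of the first matched the GRCm38.p6 gene table. Since the medians of log2(intensity + 16) lay within 0.1 of each other, deposited values were not rescaled. The comparison used limma (version 3.58.1, R 4.3.3) with lmFit and trended eBayes, two-sided, with Benjamini-Hochberg adjustment. The prior degrees of freedom were infinite, so spread comes from the trend over probe sets of like signal, and small p-values rest on that. A gene took its brightest kept probe set. The code was tested on simulated data.

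Members and lists were chosen with earlier results of these data known. Of 233 list entries, 231 matched a gene. Per list, the text names the members past the threshold and then those with the smallest p, up to 4 in all, and Syk, Inpp5d, Mmp8, S100a8, Mrc1 and Mertk were chosen after their values were seen. Genes most like a member were to be named for members past the threshold, and there were 0. Alternatives changed the normalization (quantile or median centring), the filter (none, or the 60th percentile), the pseudocount (1 or 64), the moderation, the threshold (0.1) or the probe set rule (a mean per gene), added the replicate number as a block, or left out each array. The number of arrays limits precision. Figures used matplotlib 3.10.9 in Python 3.11.15.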

Additional observations from a re-analysis of the deposited data

How the results depend on the processing

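Member genes called numbered 0 under all alternatives but quantile normalization, which called 1 (Tyrobp). Against 232 called probe sets (67 higher, 165 lower), quantile normalization gave 426 (172 higher, 254 lower), the replicate block 486, no moderation 0 (391 at an unadjusted p under 0.05), and leaving out single arrays from 57 (without WT replicate 2) to 330. Without WT replicate 1 it was 75. Against 6 called genes of the companion lists, quantile normalization gave 12, no moderation 0, and leaving out single arrays from 1 (without WT replicate 1) to 6, with 2 without WT replicate 2. The lone array of a genotype is then assumed to vary like the other pair. As a scale for the list counts, 3.78% of all genes tested were called in the main fit and 6.64% after quantile normalization.

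Directions of uncalled members turned for Fcgr3 under quantile normalization (0.023) and median centring (0.016). Leaving out single arrays moved the log2 fold changes of the Fcgr1 probe sets from -0.354 to 0.030 (101793_at) and from -0.255 to 0.016 (102879_s_at), of Fcgr2b from -0.088 to 0.017, of Fcgr3 from -0.037 to 0.016 and of Fcgrt from -0.10 to 0.227, and each sign turned without KO replicate 1, that of Fcgrt also without WT replicate 2 (-0.077). The Fcgr1 (101793_at) to Fcgr2b difference ranged from -0.268 to 0.015, and that of Fcgr3 to Fcgr2b, 0.025 with all arrays, from -0.0004 to 0.051, which says nothing of that receptor pair since Fcgr3 is at background. Probe sets of like signal to those of Fcgr1 and Fcgr2b also read lower on KO replicate 1 than on KO replicate 2, as given above. The causes were not tested.

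Replicate numbers are not said to pair samples. Deviations of same-numbered arrays correlated at 0.42 over 6389 probe sets; with the replicate block 0 member probe sets passed, the adjusted p of Fcgr1 being 0.464.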
